A study of Homo sapiens with 3 samples.

Results

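The genes described here were the antisense long non-coding RNAs of MDA-MB-231 cells, set beside the genes they are named after. A member was any gene on the array whose symbol ends in -AS1, -AS2 or -AS3, and where several probe sets (groups of probes for 1 transcript) carried 1 symbol, the probe set with the highest mean over the 3 arrays stood for it. This gave 475 antisense RNAs of 14884 named genes: 431 ended in -AS1, 32 in -AS2 and 12 in -AS3. The gene named before the hyphen, the sense partner, had a named probe set for 313 of them, which were 302 different sense genes. The partners of the other 162 antisense RNAs were not analysed here.

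MDA-MB-231 is an established triple-negative human breast cancer line with mesenchymal features. Cells were kept for 72 h with 10 µM Mt-CFX, with 10 µM CFX, or with 1% DMSO as the control, and the labels do not say how much DMSO the cultures with a compound held. CFX was read as ciprofloxacin, the fluoroquinolone antibiotic in the series title, and Mt-CFX is known here by its code name only. Each group was 1 array, so no difference below has a replicate check, a test or an error. Differences were counted by a fixed size, 1.5-fold or 0.585 on the log2 scale.

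An antisense RNA is transcribed from the strand opposite a neighbouring gene, often a protein-coding one. Some start beside the sense gene's own start and run away from it, and others run across its body. Individual antisense RNAs are known to act on the sense gene's transcription, splicing or RNA stability, while most have no described role, and as a class they are less abundant than messenger RNAs.

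Fewer than 1 in 2 antisense RNAs gave a signal above the middle of the array. The median of all probe sets over the 3 arrays was 3.89 on the log2 scale, and values under it were taken as near background. On at least 1 array, 199 of the 475 antisense RNAs (41.9%) reached this floor, against 231 of 302 sense partners (76.5%) and 10126 of all 14884 named genes (68.0%). Just under the floor was ZSWIM8-AS1, and just over it were COCH-AS1, CCNT2-AS1, FAM13A-AS1 and CSNK1G2-AS1 at 3.91. Levels of different probe sets were not ranked as amounts of RNA, because each probe set binds with its own strength.

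The 3 arrays had medians of 3.88 with Mt-CFX, 3.90 with CFX and 3.91 in the control. Of the mesenchymal markers, 6 of 7 had a named probe set and all 6 reached the floor, among them AXL, a receptor tyrosine kinase, at 10.86, 10.93 and 10.97. The lowest of these 6 was S100A6, at 6.35 on every array. Of the luminal markers, 5 of 6 were named and 4 reached the floor. With Mt-CFX, with CFX and in the control, KRT19 read 5.94, 5.80 and 6.12, and EPCAM read 5.11, 5.37 and 5.37. FOXA1 read 4.36 on every array, while the progesterone receptor gene PGR stayed at 2.39. The oestrogen receptor gene ESR1 sat at the floor, at 3.81, 3.92 and 3.81. No leukocyte or fibroblast marker had a named probe set, and the endothelial marker PECAM1 was under the floor.

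With Mt-CFX, 2 of the 199 antisense RNAs at the floor were 1.5-fold or more above the control and 0 were 1.5-fold or more below it. Over all named genes at the floor, 2.84% differed by that size in either direction, with 1.57% higher and 1.27% lower. Among the antisense RNAs the share was 1.01%. Counting any difference, 43 antisense RNAs were higher, 24 were lower and 132 (66.3%) had exactly the same value on both arrays. A difference of 0.1 or more in either direction was seen in 34 of the 199. Of the unequal antisense RNAs 64.2% were higher, against 51.6% of the unequal named genes, of which 2464 were higher and 2310 lower. Of the unequal sense partners 45.2% were higher (47 higher and 57 lower). Other long non-coding RNAs leaned the same way as the antisense RNAs, with 69.2% of the unequal LINC genes and 85.7% of the unequal divergent transcripts (-DT) higher. Shares from few genes were 62.5% for intronic transcripts (-IT, 5 higher and 3 lower) and 66.7% for both SNHG (2 and 1) and microRNA host genes (4 and 2). The 1 unequal overlapping transcript (-OT) was lower. Of all named genes at the floor, 52.9% were equal. The median difference was 0.00. In a culture measured as a whole, fewer cells with an RNA and less of it per cell cannot be told apart.

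NHSL1-AS1 had the largest difference. It read 5.20 with Mt-CFX, 3.83 with CFX and 3.66 in the control, so only the Mt-CFX array was above the floor. The difference was 1.54 over the control, a ratio of 2.90, and 1.36 over CFX, a ratio of 2.57. Because the values with CFX and in the control were near background, the size of these ratios is uncertain. It was the only antisense RNA at the floor past 2-fold over the control, where 0.365% of all named genes were 2-fold or more higher. Its partner NHSL1, a regulator of actin assembly and cell migration, read 6.15 with Mt-CFX, 5.88 with CFX and 5.86 in the control. NHSL1 was highest on the same array, by 0.30 over the control.

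VLDLR-AS1 was the other. It read 5.45 with Mt-CFX, 4.76 with CFX and 4.62 in the control, all above the floor and highest with Mt-CFX. The difference over the control was 0.83, a ratio of 1.78, and the difference over CFX was 0.69, a ratio of 1.62. A further probe set for VLDLR-AS1 read 5.09, 4.53 and 3.81 in the same order of cultures, with Mt-CFX again highest. Its differences were 1.28 for Mt-CFX over the control, 0.72 for CFX over the control and 0.56 for Mt-CFX over CFX. The control value of this probe set was under the floor, so the sizes of its differences over the control are uncertain. On this probe set CFX too was past 1.5-fold over the control, and Mt-CFX was not past it over CFX, so the counts of VLDLR-AS1 in those comparisons depend on the probe set. The mean of both probe sets gave 0.43 for CFX over the control, against 0.14 for the probe set used. The partner VLDLR, a receptor for lipoproteins and reelin, read 7.27 with Mt-CFX, 7.07 with CFX and 7.00 in the control. Its difference over the control was 0.28.

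The sequences around the starts of these 2 antisense RNAs are shown because the data single them out, as RefSeq gives them on GRCh38.p14. Each is 300 bases long, runs 5′ to 3′ along the antisense RNA and holds 250 bases before the start, which is position 251. Capitals mark matches to the 11 motifs searched on both strands. The NHSL1-AS1 window is chr6:138691418-138691717, plus strand. The VLDLR-AS1 window is chr9:2622324-2622623, minus strand.
NHSL1-AS1: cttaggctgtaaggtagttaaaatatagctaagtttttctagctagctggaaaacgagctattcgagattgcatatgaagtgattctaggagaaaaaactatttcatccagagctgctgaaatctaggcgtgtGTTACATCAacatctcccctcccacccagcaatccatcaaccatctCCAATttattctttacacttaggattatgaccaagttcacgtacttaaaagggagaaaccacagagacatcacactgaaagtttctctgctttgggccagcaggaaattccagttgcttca
VLDLR-AS1: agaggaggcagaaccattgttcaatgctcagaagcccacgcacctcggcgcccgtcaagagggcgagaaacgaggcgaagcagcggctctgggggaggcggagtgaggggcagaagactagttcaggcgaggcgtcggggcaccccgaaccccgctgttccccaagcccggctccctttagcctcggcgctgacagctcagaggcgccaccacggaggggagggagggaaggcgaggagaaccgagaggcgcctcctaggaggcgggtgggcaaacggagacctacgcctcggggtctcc

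The NHSL1-AS1 window was 40.7% G and C. It held TGATGNAAN, the core of the C/EBP-ATF response element, on the minus strand of the window at position 134, and CCAAT at position 180. TGATGNAAN was in 3.61% of all 35116 RefSeq windows of this length and in 1.64% of those of antisense RNAs at the floor, and CCAAT in 34.6% and 35.5%. The VLDLR-AS1 window was 67.3% G and C and held none of the motifs. The others searched were the full response element TGATGCAAT, the cyclic AMP element TGACGTCA, the E-box (CACGTG), the E2F sites TTTCCCGC and then TTTGGCGC, the ETS site (CCGGAAG), the GC box (GGGCGG), the NRF1 site and the TATA box (TATAAA). A match is a stretch of letters, not a shown binding site. The VLDLR-AS1 start lay 586 bases downstream of the VLDLR start, on the opposite strand. The NHSL1-AS1 start lay 119099 bases upstream of the nearest NHSL1 start.

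Several antisense RNAs came close to the size without reaching it. EPB41L4A-AS1, which also hosts a small nucleolar RNA, read 6.72 with Mt-CFX, 6.46 with CFX and 6.14 in the control, a difference of 0.58 over the control. The 3 cultures were all apart, with CFX in between. Its partner EPB41L4A, a band 4.1 family gene, read 5.57 on every array. CCDC18-AS1 read 6.97 with Mt-CFX and 6.44 in both other cultures, while CCDC18, a coiled-coil protein gene, read 6.78 throughout. SLC25A21-AS1 read 5.42, 5.03 and 4.85, and DLGAP1-AS1 read 5.91, 5.43 and 5.36, with Mt-CFX first and the control last. Both were highest with Mt-CFX. HIF1A-AS2, antisense to the 3′ end of the hypoxia factor gene HIF1A, was farther from the size and is given for its high mean level. It read 6.77 with Mt-CFX, 6.45 with CFX and 6.44 in the control, a difference of 0.33 over the control.

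Lower values with Mt-CFX were smaller in size. PRR7-AS1 was lowest relative to the control, at 5.76 with Mt-CFX against 6.09 in the control, a difference of -0.32, and the CFX array lay between them. ZEB2-AS1, known for its part in splicing of the ZEB2 message, read 3.69 with Mt-CFX and 3.96 in both other cultures, a difference of -0.27 that ended under the floor. ZEB2 itself, a transcription factor of the mesenchymal state, read 5.32 on every array.

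**Figure D1:**
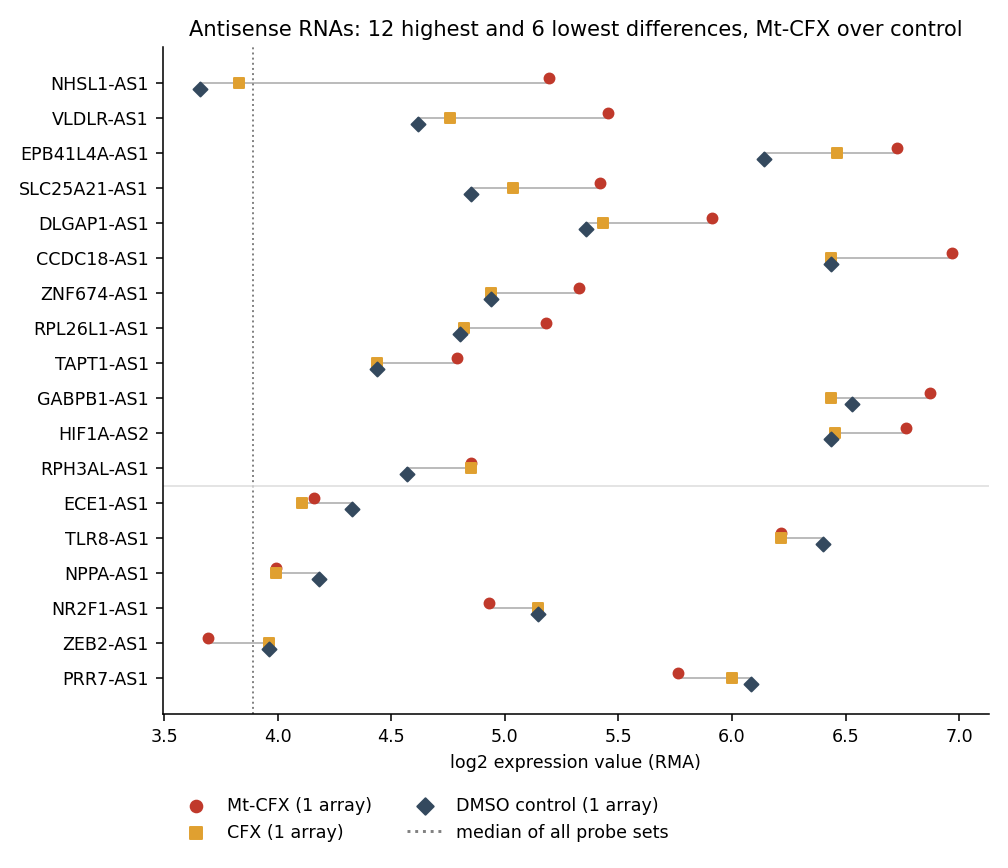
Log2 expression value (horizontal axis) on the Mt-CFX, CFX and DMSO control arrays for the 12 antisense RNAs at the floor with the highest and the 6 with the lowest difference of Mt-CFX over control. Each point is 1 array and the dotted line is the floor of 3.89. NHSL1-AS1 crosses the floor with Mt-CFX only, at 5.20, and VLDLR-AS1 reads 5.45 with Mt-CFX against 4.62 in the control.

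With CFX, 0 of the 199 antisense RNAs were 1.5-fold or more from the control, where 0.385% of all named genes were, 0.198% higher and 0.188% lower. Counting any difference, 37 were higher, 26 lower and 136 equal (68.3%). The higher share of the unequal was 58.7%, near the 61.3% over all named genes, of which 58.8% were equal. It was 68.5% for the sense partners. TNFRSF14-AS1, named after the receptor of the cytokine LIGHT, stood highest, at 4.02 with Mt-CFX, 4.56 with CFX and 4.02 in the control, a CFX difference of 0.54. ZBED5-AS1 had the same shape, at 5.34, 5.71 and 5.34. CNTFR-AS1, named after the ciliary neurotrophic factor receptor gene, stood lowest, at 4.56 with Mt-CFX, 4.04 with CFX and 4.51 in the control, a CFX difference of -0.47. In these 3 RNAs the CFX array stood apart and the Mt-CFX array lay at or near the control.

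Between the compounds at the same dose and time, Mt-CFX exceeded CFX by 1.5-fold or more in 2 antisense RNAs, and CFX exceeded Mt-CFX by that size in 0. Of all named genes, 2.23% differed so in either direction, 1.21% with Mt-CFX above and 1.02% with it below. They were NHSL1-AS1 and VLDLR-AS1. Counting any difference, 40 were higher, 25 lower and 134 equal (67.3%). The higher share of the unequal was 61.5%, against 46.7% over all named genes, of which 54.5% were equal. For the sense partners it was 37.1% (39 higher and 66 lower). The higher share was 61.4% among LINC genes and 81.8% among -DT. From few genes, it was 60.0% among -IT (6 higher and 4 lower) and 80.0% among microRNA host genes (4 and 1). Among SNHG genes it was 33.3% (1 and 2) and among -OT genes 0% (0 and 2). CCDC18-AS1 differed by 0.53, CNTFR-AS1 by 0.52 and TNFRSF14-AS1 by -0.54. With 1 array per compound, no interval can be put on any of these differences.

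**Figure D2:**
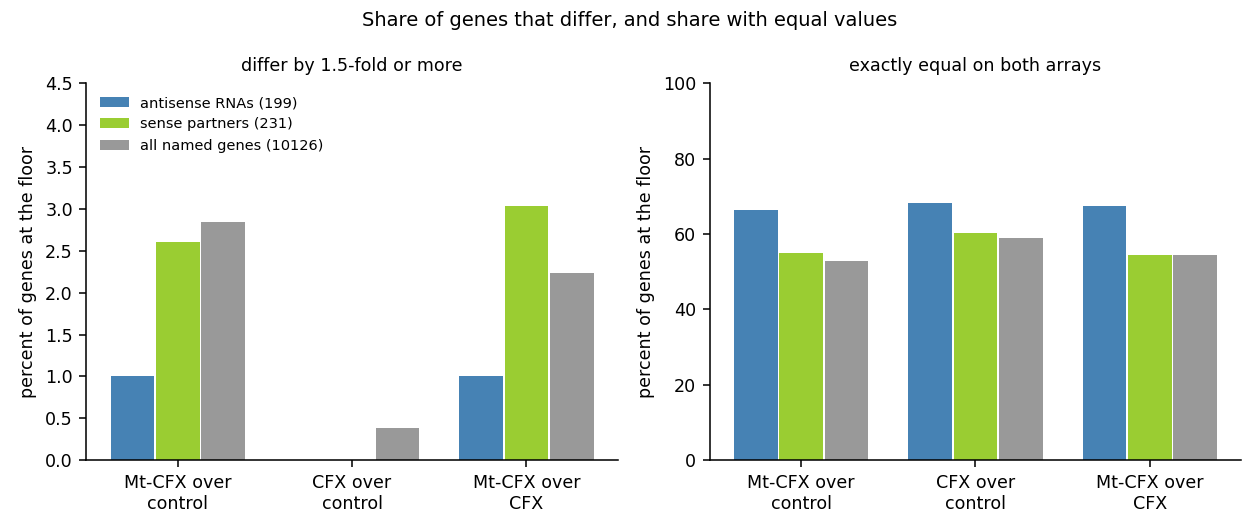
Percent of genes at the floor that differ by 1.5-fold or more (left) and that have exactly the same value on both arrays (right), for 199 antisense RNAs, 231 sense partners and 10126 named genes in each comparison. Antisense RNAs stand at 1.01% for Mt-CFX over control against 2.84% of all named genes, and have the highest share of equal values in each comparison.

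Exact repeats of a value were common and limit what a difference of 0 says. Of the 199 antisense RNAs at the floor, 112 (56.3%) had 1 value on all 3 arrays, against 48.5% of sense partners and 44.9% of all named genes at the floor. The share was 74.6% among the antisense RNAs under the floor. An equal value was therefore not read as a measured lack of change, and the origin of the repeats was not tested. Whether the values were processed further after RMA, the normalization the submitters name, is not given in the sources used here. The differences other than 0 carry the same doubt.

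Among antisense RNAs with a described role in cancer or cell regulation, 19 of the 26 listed had a probe set and 13 reached the floor. Of these 13, 0 were past 1.5-fold in any comparison. Over all named genes at the floor, 2.84% passed for Mt-CFX over control, 0.385% for CFX over control and 2.23% for Mt-CFX over CFX. A count of 0 among 13 is near these shares. AFAP1-AS1, known for its high levels in several carcinomas, read 8.94 with Mt-CFX, 8.94 with CFX and 8.86 in the control. PSMA3-AS1 read 6.70, 6.70 and 6.58, and THAP9-AS1 read 6.64, 6.64 and 6.51, with the control last and slightly lowest in each. In 7 of the 13 all arrays were equal, near the 56.3% of all antisense RNAs at the floor. Among the 7 were FGD5-AS1 at 6.34, LOXL1-AS1 at 6.04, DDX11-AS1 at 5.57, SBF2-AS1 at 5.28, MCM3AP-AS1 at 5.08 and RAMP2-AS1 at 4.24. FOXD2-AS1 read 5.64, 5.64 and 5.67 and ITGB2-AS1 read 4.37, 4.37 and 4.43, with the control last and slightly highest in each. Others with a high mean level were GABPB1-AS1, at 6.87 with Mt-CFX, 6.43 with CFX and 6.53 in the control, and PITPNA-AS1, at 6.45, 6.45 and 6.44. PCBP3-AS1 at 6.51 and THUMPD3-AS1 at 6.40 were equal throughout. CDKN2B-AS1, which helps silence the INK4 cell cycle inhibitor locus, read 2.29 on every array, under the floor. ZEB1-AS1 was also under it, at 3.81, 3.66 and 3.81, as were HOXA-AS3, GATA3-AS1, MAGI2-AS3 and DLX6-AS1.

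Grouped by the first letters of the sense gene's symbol, no group held an antisense RNA past 1.5-fold. Such groups need not match what each gene does. The groups had 5 to 8 members at the floor, where 2.84% of all named genes passed with Mt-CFX, so a count of 0 is near that share. Among those named after developmental transcription factors 5 of 16 reached the floor, among those of zinc finger genes 5 of 17, among those of solute carriers and channels 8 of 19, and among those of adhesion and matrix genes 6 of 10, beside 41.9% of all antisense RNAs.

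The sense partners were counted in the same way. With Mt-CFX, 3 of 231 sense genes at the floor were 1.5-fold or more higher than the control and 3 were lower (2.60%), beside the background of 2.84% given above. With CFX there were 0, beside 0.385% of all named genes. Between the compounds, 3 were higher and 4 lower with Mt-CFX (3.03%), beside 2.23% of all named genes. This made 7 sense genes in all. Their antisense RNAs were equal on all 3 arrays in 6 of the 7, and 2 of the 7 reached the floor. Of all 475 antisense RNAs 318 (66.9%) were equal on all 3 arrays, and 74.6% of those under the floor, so this count is near the share of any antisense RNA.

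UNC5B, a netrin receptor, read 6.04 with Mt-CFX and 5.06 in both other cultures, a difference of 0.98. Its antisense RNA UNC5B-AS1 read 4.16 on every array. SERTAD4, a SERTA domain gene, read 4.80 with Mt-CFX, 5.95 with CFX and 5.94 in the control, a difference of -1.15, and SERTAD4-AS1 read 4.93 throughout. In these pairs, both above the floor, the sense gene stood apart with Mt-CFX in opposite directions and the antisense value was equal on every array.

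In the other 5 pairs the antisense RNA was under the floor. EIF1B, a relative of the start-codon selecting initiation factor eIF1, read 6.65 with Mt-CFX, 5.94 with CFX and 5.69 in the control, while EIF1B-AS1 read 2.59 on all arrays. ARRDC3, an arrestin-domain adaptor for receptor turnover, read 7.46, 6.71 and 6.75, with Mt-CFX alone high. Of the 7 antisense RNAs, ARRDC3-AS1 alone had unequal values, at 3.48 with Mt-CFX, 3.08 with CFX and 3.18 in the control, highest on the same array as ARRDC3 but within the near-background range. HAS2, a hyaluronan synthase, was lower with Mt-CFX, at 5.92 against 6.68 with CFX and 6.68 in the control. TMEM51 read 4.45 with Mt-CFX and 5.06 in both other cultures. DSEL, a relative of dermatan sulfate epimerase, read 5.47, 6.07 and 5.93, and passed 1.5-fold only against CFX.

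**Figure D3:**
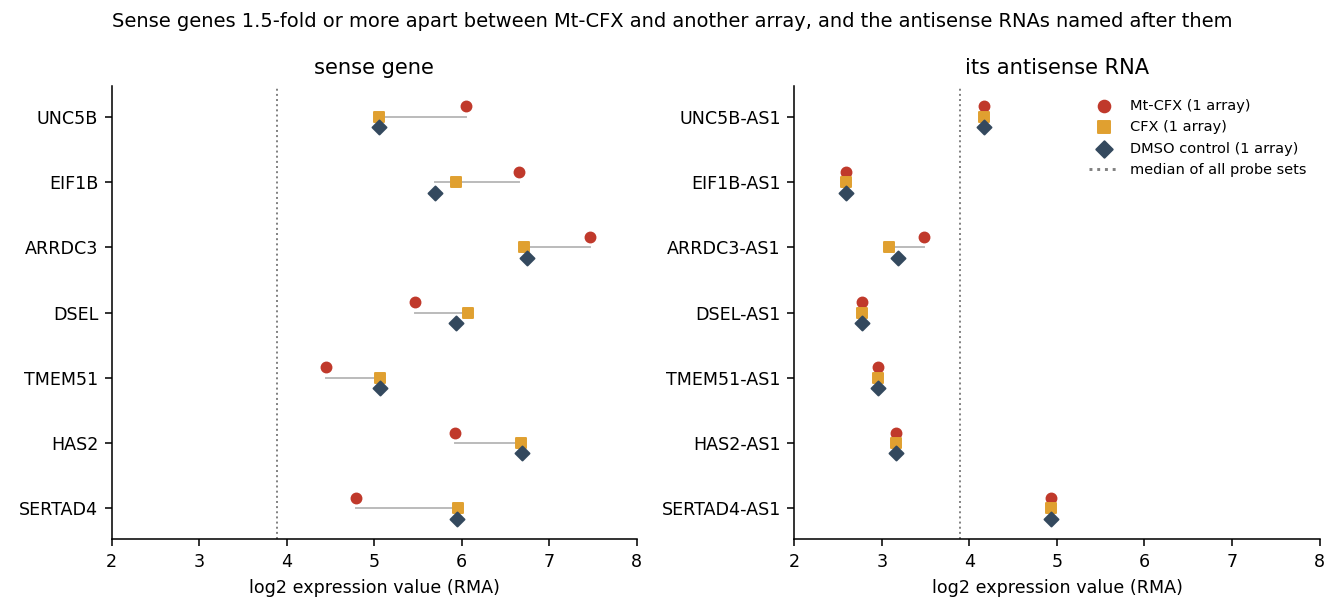
Log2 expression value (horizontal axes) on the Mt-CFX, CFX and DMSO control arrays for the 7 sense genes 1.5-fold or more apart between Mt-CFX and another array (left) and for their antisense RNAs (right). Each point is 1 array and the dotted line is the floor. The 3 antisense points have the same horizontal position for every RNA but ARRDC3-AS1.

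Starts of the 7 pairs could be placed for 5, and in 3 of these the 300-base windows of the sense and antisense starts share bases. They are shown because an annotated start of each RNA lies in or beside the shared bases. Each is the window of the sense start nearest to the antisense start, 5′ to 3′ along that gene with its start at position 251, from RefSeq on GRCh38.p14. Capitals mark the bases that also lie in the window of the antisense RNA. The EIF1B window is chr3:40309457-40309756 on the plus strand, the ARRDC3 window chr5:91380048-91380347 on the minus strand, and the TMEM51 window chr1:15152316-15152615 on the plus strand.
EIF1B: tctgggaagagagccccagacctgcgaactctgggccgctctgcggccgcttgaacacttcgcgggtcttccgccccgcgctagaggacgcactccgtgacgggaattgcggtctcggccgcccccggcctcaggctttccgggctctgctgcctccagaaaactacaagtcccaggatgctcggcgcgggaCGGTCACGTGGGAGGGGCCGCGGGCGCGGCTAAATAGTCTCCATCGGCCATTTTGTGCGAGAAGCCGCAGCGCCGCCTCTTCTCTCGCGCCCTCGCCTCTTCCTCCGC
ARRDC3: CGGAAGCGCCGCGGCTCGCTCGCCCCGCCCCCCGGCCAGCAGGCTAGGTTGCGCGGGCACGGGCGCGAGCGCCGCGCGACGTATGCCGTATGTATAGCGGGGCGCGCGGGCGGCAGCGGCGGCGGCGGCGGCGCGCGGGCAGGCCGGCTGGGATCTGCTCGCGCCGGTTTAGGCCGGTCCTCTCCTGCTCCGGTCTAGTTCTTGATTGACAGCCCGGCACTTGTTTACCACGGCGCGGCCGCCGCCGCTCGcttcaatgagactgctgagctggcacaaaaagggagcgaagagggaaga
TMEM51: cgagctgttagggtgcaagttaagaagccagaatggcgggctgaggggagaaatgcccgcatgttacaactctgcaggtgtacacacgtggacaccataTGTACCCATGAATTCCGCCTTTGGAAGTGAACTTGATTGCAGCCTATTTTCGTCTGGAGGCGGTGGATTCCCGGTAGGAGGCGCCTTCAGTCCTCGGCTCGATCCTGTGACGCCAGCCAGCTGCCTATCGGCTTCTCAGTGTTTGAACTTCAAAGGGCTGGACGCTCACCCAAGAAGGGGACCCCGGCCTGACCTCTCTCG

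EIF1B-AS1 starts 9 bases upstream of EIF1B with 108 shared bases, ARRDC3-AS1 starts 250 bases upstream of the nearest ARRDC3 start with 251, and TMEM51-AS1 starts 102 bases upstream of the nearest TMEM51 start with 201. ARRDC3 has 2 starts in RefSeq, and ARRDC3-AS1 begins 2970 bases downstream of the other, so it runs away from the nearer start and toward the farther one. TMEM51 also has 2, and TMEM51-AS1 lies upstream of both. Of these pairs, EIF1B was 0.96 higher with Mt-CFX than in the control while its antisense value was equal on both arrays. TMEM51 had a difference of -0.61 beside an equal antisense value. ARRDC3 and ARRDC3-AS1 were both higher, by 0.72 and 0.30. The antisense values of all these pairs were near background, and an equal value was not read as a lack of change.

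Across all antisense RNAs, 321 pairs had windows for both starts, and all 321 lay on opposite strands. Windows shared bases in 72 pairs, starts were within 5000 bases without a shared base in 92, and they were farther apart in 157. The antisense RNA reached the floor in 45.8%, 51.1% and 41.4% of these classes in that order. Windows of antisense RNAs at the floor had a median of 64.0% G and C, against 57.3% for those under it and 58.7% for all windows. Windows of sense partners at the floor had 64.7%. GGGCGG, the GC box, was in 50.8% of the at-floor antisense windows, 56.8% of the at-floor sense windows and 45.0% of all windows. CACGTG, the E-box, was in 10.9%, 8.08% and 7.26% in that order. TATAAA went the other way, at 6.56%, 7.80% and 11.5%. TGATGNAAN was in 3 of 183 at-floor antisense windows (1.64%), in 1.29% of those under the floor and in 3.61% of all windows. TGATGCAAT was in 0 of the 183, beside 0.236% of all windows, and is too rare for a comparison.

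Antisense and sense differences were then set side by side within each comparison. Both members reached the floor in 119 of the 313 pairs, the antisense RNA alone in 17, the sense gene alone in 122 and neither in 55. For Mt-CFX over control, both values were equal in 40 of the 119 pairs, the antisense value alone in 36 and the sense value alone in 25. That left 18 pairs in which both differed. In 13 the signs were the same, 8 with both higher and 5 with both lower, and in 5 they were opposite.

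For CFX over control 14 pairs had both members unequal, 9 with the same sign and 5 with opposite signs. For Mt-CFX over CFX there were 19, with 14 the same and 5 opposite. Pearson's r across the 119 pairs was 0.19 for Mt-CFX over control, 0.065 for CFX over control and 0.19 for Mt-CFX over CFX. Spearman's rho was 0.20, 0.063 and 0.22. Without the NHSL1 and VLDLR pairs r was 0.045, 0.053 and 0.057 and rho was 0.15, 0.022 and 0.16 over 117 pairs. In both comparisons with Mt-CFX r was lowered more than rho. The points share arrays, some share a sense gene, and the comparisons share arrays with each other, so no test was made. The files do not give the strand of the probes, and whether the probes of a pair read separate strands was not tested.

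Gaps of 1.5-fold or more between the antisense and the sense difference were seen in 3 pairs for Mt-CFX over control, 0 for CFX over control and 3 for Mt-CFX over CFX. With Mt-CFX these were the pairs of NHSL1-AS1 and SERTAD4-AS1, where the antisense difference was above the sense difference, and of UNC5B-AS1, where it was below. Apart from these, PCNA, the sliding clamp of DNA replication, read 8.22 with Mt-CFX, 8.75 with CFX and 8.44 in the control. PCNA-AS1 read 5.54 on every array. KDM4A, a histone demethylase, read 7.23 with Mt-CFX, 7.09 with CFX and 6.79 in the control, highest with Mt-CFX. KDM4A-AS1 read 4.34, 4.20 and 4.31, with CFX lowest. OBI1-AS1 read 4.36, 4.20 and 4.48 beside OBI1, a ubiquitin ligase gene of replication origins, at 6.30, 6.38 and 6.38. RPH3AL-AS1 read 4.85, 4.85 and 4.57 beside RPH3AL at 6.92 on every array.

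**Figure D4:**
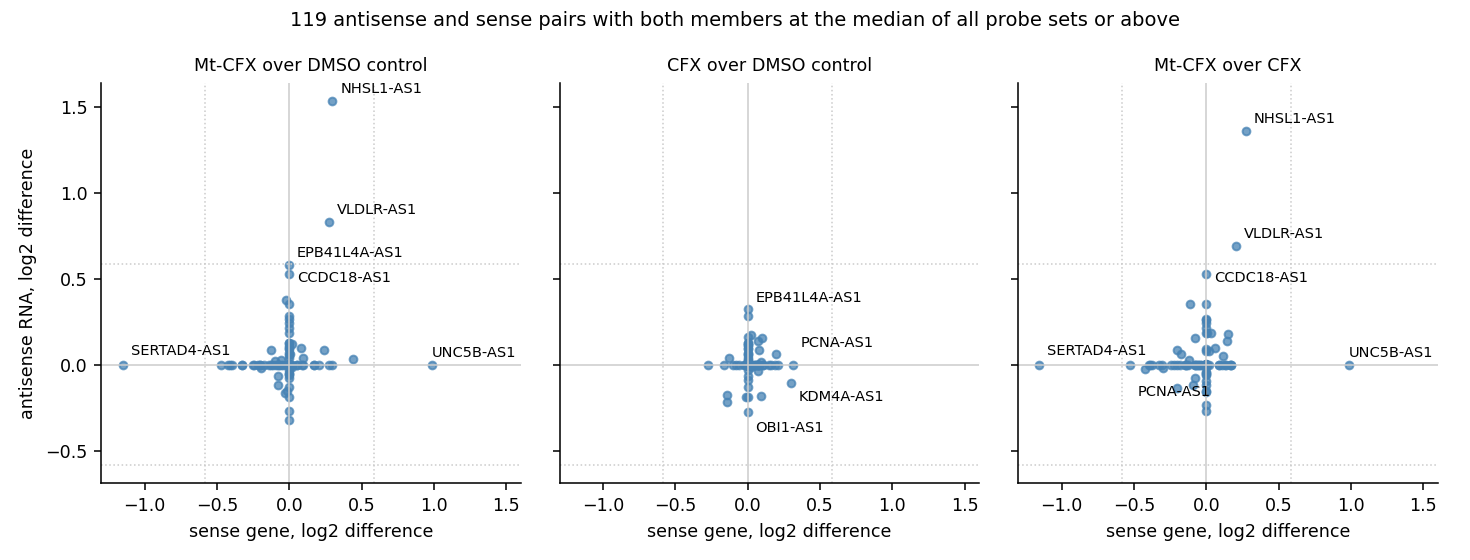
Log2 difference of the sense gene (horizontal axis) against that of its antisense RNA (vertical axis) for the 119 pairs with both at the floor, 1 panel per comparison, each point a pair and dotted lines at 1.5-fold. Most points lie at the origin, where both members of the pair are equal on both arrays, or elsewhere on an axis, where 1 member is. NHSL1-AS1 and VLDLR-AS1 stand highest in both panels with Mt-CFX.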

How the data were processed

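Total RNA of 3 cultures was measured on whole-transcript Affymetrix arrays, 1 array per group. Each deposited value is a log2 signal for 1 probe set. The submitters' processing notes name RMA and the Affymetrix Expression Console as the authors' tools. Any step after RMA is not given in the sources used here, and the many exactly repeated values leave that in doubt. Versions and the genome build of the array annotation were not given in the sources used here. RMA models each probe set over all arrays together, so the arrays are not processed independently of each other, and an array has no read depth: its number limits the precision.

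Of 53617 probe sets, 16098 carried 1 gene symbol, 37519 were unnamed and 0 carried several. The 506 antisense probe sets stood for 475 symbols, all of which matched a RefSeq gene. Differences of log2 values were counted at 1.5-fold among genes whose highest array reached the median of all probe sets, 3.89. No test or p-value was computed. Genes named in the text were those past 1.5-fold and their partners, the 10 highest means, the 5 widest pair gaps per comparison and a list of 26 antisense RNAs; those just under the size, lowest, or highest with CFX were chosen after their values were seen. The members and lists were chosen with earlier results of these data known. The alternatives tried were dropping the floor, setting it on the mean or at the 75th percentile, the mean of all probe sets, 2-fold, and a smallest difference of 0.1 for signs. The counting code was checked on simulated differences of known size. These held no tied values, so the check does not show how the ties in these data affect the counts. Python 3.11.15, pandas 2.3.3, numpy 2.4.6 and matplotlib 3.10.9 were used.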

Additional observations from a re-analysis of the deposited data

How the results depend on the processing

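Each comparison has 1 array per group, so no count has an error, and probe sets near the floor limit the sizes. Of 45 recomputed counts, 28 stayed within 1.5 times the reported count and 17 moved. Without a floor, 4 antisense RNAs passed 1.5-fold for Mt-CFX over control and 2 for CFX over control. The RNAs added were RNF217-AS1, at 3.65 with Mt-CFX, 3.65 with CFX and 3.00 in the control, and TPRG1-AS2, at 3.54, 3.44 and 2.83. With the floor at the 75th percentile of all probe sets (5.43), 40 antisense RNAs reached it and 1 passed 1.5-fold for Mt-CFX over control and 1 for Mt-CFX over CFX. At 2-fold, 1 antisense RNA passed for Mt-CFX over control and 1 for Mt-CFX over CFX, and 1 sense gene did in each of these comparisons. Pairs with opposite signs numbered 5 in each comparison. The pairs with both members unequal were 18 for Mt-CFX over control, 14 for CFX over control and 19 for Mt-CFX over CFX. In that order, opposite signs were seen in 11 of 31, 12 of 27 and 7 of 27 pairs without a floor. With the higher floor they were seen in 0 of 4, 1 of 3 and 0 of 3. With differences of 0.1 or more in both members they were seen in 0 of 2, 1 of 3 and 1 of 6. The number of pairs counted thus changed along with the number of opposite signs. The direction of VLDLR-AS1 held with the mean of its probe sets, at 1.06 for Mt-CFX over control, 0.43 for CFX over control and 0.63 for Mt-CFX over CFX. The floor alternatives admit or drop genes, 2-fold and 0.1 change the size that counts, and the mean brings in the other probe set. No paired analysis was possible because each group has 1 array.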

Other observations

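Other long non-coding RNAs, grouped by symbol alone, were counted in the same way. Of 459 LINC genes, which lie between protein-coding genes, 144 reached the floor. With Mt-CFX 3 were 1.5-fold or more above the control and 2 below it, and with CFX 2 were above and 0 below. These are 3.47% and 1.39%, beside 2.84% and 0.385% of all named genes. The genes named here were chosen after their values were seen. LINC00173, by the highest mean of its 4 probe sets, read 4.36 with Mt-CFX, 4.62 with CFX and 3.53 in the control. Its differences over the control were 0.83 with Mt-CFX and 1.09 with CFX. The control value was under the floor, so these sizes are uncertain. LINC00963 read 5.60 with Mt-CFX, 5.22 with CFX and 4.79 in the control, with CFX in between. LINC00261 read 4.07 with Mt-CFX and 4.98 in both other cultures. LINC00863 read 6.92, 7.23 and 6.49, highest with CFX. Of 99 genes named -DT, for divergent transcripts, 56 reached the floor. For Mt-CFX over control 18 of them were higher, 3 lower and 35 equal, with 0 past 1.5-fold. Of the unequal ones 85.7% were higher, beside 51.6% over all named genes, and 62.5% were equal, beside 52.9%. CEP83-DT stood apart with CFX, at 4.80 with Mt-CFX, 4.12 with CFX and 4.80 in the control. No intronic (-IT), overlapping (-OT), SNHG or microRNA host gene at the floor passed 1.5-fold in any comparison.

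Values repeated between genes as well as between arrays. The 318 antisense RNAs equal on all 3 arrays held 142 different values, and 236 of them shared their value with another of the 318, up to 12 at 3.16. Over all probe sets, 26540 were equal on all 3 arrays and held 2624 different values, with 840 probe sets at 2.19. The origin of these repeats was not tested, and the differences other than 0 come from the same table.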
